A study of Mus musculus with 45 samples.

Results

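Islets of C57BL/6J mice on a diet with 44% fat were compared with islets of the same strain on a diet with 10% fat. The comparison was made over 16 of the 45 RNA-seq libraries of the study, chosen by the strain and the diet in their titles, with 8 libraries on each diet. C57BL/6J is an inbred laboratory strain, and islets of Langerhans are the clusters of endocrine cells in the pancreas that secrete insulin, glucagon and other hormones. The 4 groups were females on 10% fat, females on 44% fat, males on 10% fat and males on 44% fat, with 4 libraries each. Both diets contained fiber, the 44% fat diet was a high fat, high sugar diet, feeding began at 6 weeks of age and islets were taken at 16 weeks. The other 29 libraries came from NZO/HlLtJ, an obese strain prone to diabetes (14 libraries), and CAST/EiJ, a wild-derived strain (15 libraries), under the same diets. Whether the libraries stand for separate mice is not stated in the labels, so a p-value sets the diets against the spread from library to library, which may in part be technical. All C57BL/6J groups share the deletion in Nnt, a mitochondrial transhydrogenase gene, which the controls carry too.

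Beta cells store insulin in dense granules and release it when glucose metabolism closes ATP-sensitive potassium channels and opens calcium channels. C57BL/6J mice on a high fat diet become obese and insulin resistant, and their islets are known to answer by secreting more insulin and by adding beta cells through division. A cell that divides first copies its DNA under the control of cyclins, their kinases and inhibitors of these kinases, and then builds a spindle whose motors and kinetochores separate the chromosomes. Bulk RNA is a mixture of all cells in the preparation, so fewer cells of a type and less RNA per cell cannot be told apart.

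Levels are in CPM, counts relative to library size after scaling with TMM factors. The depth of the 16 libraries was 57.2 to 102 M counts, with a median of 83 M. Scaled to library totals, Xist, which silences an X chromosome in females, ranged from 643 to 1950 CPM in females (n = 8) and from 0.098 to 1.64 CPM in males (n = 8). Nnt ranged from 21.3 to 36.2 CPM in C57BL/6J (n = 16) and from 51.4 to 119 CPM elsewhere (n = 29). The insulin genes Ins1 and Ins2 together made up 4.97% to 11.4% of the counts on 10% fat (median 10.1%) and 7.68% to 12.5% on 44% fat (median 9.69%). A few libraries stood apart. Transcripts of 34 acinar genes, which mark the exocrine tissue around islets, made up 0.259% to 26.8% of the counts (median 5.05%), with 26.8% in female 10% fat replicate 4, 16.6% in male 44% fat replicate 1 and 0.259% in female 44% fat replicate 1. Female 44% fat replicate 2 carried 3 transcripts of NZO/HlLtJ at a median of 0.935% of their level in that strain. Replicate numbers only name libraries and pair none of them.

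Between the diets, C57BL/6J islets differed by small amounts in most genes. Many of the genes with the smallest p-values, led by the spindle motor Kif11, were cell division genes. Others among them were not, such as Hpgds, a prostaglandin D synthase gene described below. No gene passed the adjusted threshold. The model held sex and diet, and of 18557 genes tested with edgeR's quasi-likelihood test, 0 (0%) had a Benjamini-Hochberg adjusted p under 0.05. The smallest adjusted p in this edgeR test was 0.333. At an unadjusted p under 0.05 there were 495 genes (2.67%) with higher levels on 44% fat and 315 (1.7%) with lower levels. The median log2 difference over all genes was 0.0035, and 51.5% of the differences were positive. With DESeq2, 20 genes were higher and 1 was lower at an adjusted p under 0.05. Of these 21 genes, called among the 18557 tested, 7 were on a list of 30 mitosis genes. The 1 lower gene was Llgl2, a cell polarity gene, with a log2 difference of -0.24. Counts scaled to library totals alone gave 2 genes, Kif11 and the mitotic kinase Pbk, while limma gave 0 on log2 CPM and 0 on the authors' variance-stabilised values. A model of all 45 libraries, which pools the spread of 3 strains, called 5 genes higher in C57BL/6J on 44% fat and 0 lower. These were Kif11, Pbk, the kinetochore gene Dsn1, the mitotic cyclin Ccnb2 and the melanocortin receptor Mc5r. These genes and Llgl2 were singled out after their values were seen.

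The intervals were narrow for most genes. Among the 13905 genes with a mean of at least 1 CPM, the median standard error (SE) of the log2 difference was 0.08. The 95% confidence interval lay within 2-fold in either direction for 13511 of them (97.2%) and within 1.5-fold for 12480 (89.8%). An absolute log2 difference over 1 was found in 8 of these genes, all with the higher level on 44% fat. Beside Pbk and the opioid precursor gene Pdyn, these included the digestive enzyme genes Prss1, Cela3a and Amy2b, named after their values were seen. Most acinar genes lay on the other side: 31 of the 34 on the acinar list had negative differences and 3 positive ones, with a median of -0.451. Prss1 rested on male 44% fat replicate 2, with a log2 difference of 3.47 with this library and 1.38 without it. Groups that did not overlap, with every library on 44% fat above every library on 10% fat, were found for 2 genes (0.0108% of those tested), Kif11 and Dsn1. The reverse order was found for 0 genes.

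Genes that act in mitosis tended to higher levels on 44% fat. All 30 genes of the mitosis list had positive log2 differences, with a median of 0.70 (0.139 to 1.10), against 0.0035 over all genes. In that test 25 of the 30 were higher and 0 were lower at an unadjusted p under 0.05, beside 2.67% and 1.7% of all genes. The list was chosen with earlier results of these data known, so the count is a description and not an independent test. No gene of the list passed the adjusted threshold in edgeR, where the smallest adjusted p was 0.333. The levels were low: 21 of the 30 genes had a mean of at least 1 CPM.

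Many genes of the late cell cycle carry a pair of short motifs near their starts, the CHR (TTTGAA or TTCGAA), which the DREAM and MMB complexes bind, and the CCAAT box, which NF-Y binds. Promoters were read from the RefSeq table of build GRCm38.p6 as windows of 300 bases, 250 before and 50 after the start, and were found for 25 of the 30 mitosis genes as 27 promoters. On either strand, a CHR was present in 21 of the 27 (77.8%), against 19.2% of all 32851 promoters of that length. A CCAAT was present in 21 of the 27 (77.8%), against 37.4% of all. Both were present in 19 (70.4%), against 7.52% of all, and no occurrence of one overlapped the other. The 150 bases before the start are shown for 5 genes whose values are given next, so that the shared letters can be seen. Capitals mark a CHR or a CCAAT box on either strand, and a match is a description of letters, not a tested site.
Kif11, chr19:37376232-37376381, plus strand: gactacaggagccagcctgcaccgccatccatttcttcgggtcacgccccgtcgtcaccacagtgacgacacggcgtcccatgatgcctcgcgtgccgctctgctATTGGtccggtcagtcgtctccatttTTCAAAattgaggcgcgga
Ccnb2, chr9:70421555-70421704, minus strand: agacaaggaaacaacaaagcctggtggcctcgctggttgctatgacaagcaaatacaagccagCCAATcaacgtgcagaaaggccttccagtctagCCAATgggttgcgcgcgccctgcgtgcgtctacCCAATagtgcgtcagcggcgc
Cdk1, chr10:69352913-69353062, minus strand: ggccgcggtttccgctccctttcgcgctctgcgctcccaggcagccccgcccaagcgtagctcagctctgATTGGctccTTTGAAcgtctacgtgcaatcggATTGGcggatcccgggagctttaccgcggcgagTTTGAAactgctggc
Top2a, chr11:99024190-99024339, minus strand: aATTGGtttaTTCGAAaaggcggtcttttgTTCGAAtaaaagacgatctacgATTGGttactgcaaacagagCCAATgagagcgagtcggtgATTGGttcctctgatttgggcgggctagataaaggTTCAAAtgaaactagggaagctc
Mki67, chr7:135716380-135716529, minus strand: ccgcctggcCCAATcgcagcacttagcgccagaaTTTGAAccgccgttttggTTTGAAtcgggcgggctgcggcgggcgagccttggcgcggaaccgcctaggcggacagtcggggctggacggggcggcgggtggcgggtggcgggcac
The 150 bases of Ccnb2 hold 3 CCAAT boxes and 0 CHRs, and its 2 CHRs lie in the rest of the 300-base window. Of the 5 genes shown, Top2a held the most CHRs in its 300-base window, 4, beside 6 CCAAT boxes.

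Kif11, a kinesin that pushes spindle poles apart, is the gene with the smallest p (chromosome 19, 37376403 to 37421859, GRCm38). Its level was 1.07 to 1.97 CPM on 10% fat (median 1.37) and 2.02 to 3.93 CPM on 44% fat (median 2.45). The groups did not overlap, and the 3 highest libraries were males on 44% fat, at 3.93, 3.85 and 3.45 CPM, while the fourth male library on that diet was at 2.17 CPM. The log2 difference was 0.99 (SE 0.17, adjusted p = 0.333, edgeR). Across all alternatives it lay between 0.67 and 1.09.

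Pbk, a kinase of mitotic cells, was at 0.844 to 1.37 CPM on 10% fat (median 0.944) and at 1.35 to 4.17 CPM on 44% fat (median 2.21). On 44% fat, 7 of 8 libraries lay above the highest library on 10% fat, and male 44% fat replicate 3 did not. The log2 difference was 1.18 (SE 0.22, adjusted p = 0.333, edgeR). Dsn1, a subunit of the kinetochore complex that holds microtubules, was at 0.350 to 0.748 CPM on 10% fat (median 0.512) and at 0.854 to 1.29 CPM on 44% fat (median 0.973). The groups did not overlap, and the log2 difference was 0.85 (SE 0.17, adjusted p = 0.395, edgeR). Pbk and Dsn1 are not on the mitosis list and were chosen after their values were seen.

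Ccnb2, a cyclin that activates the mitotic kinase, was at 0.342 to 0.737 CPM on 10% fat (median 0.496) and at 0.646 to 1.99 CPM on 44% fat (median 1.01). Here 7 of 8 libraries on 44% fat lay above the 10% fat range, and the log2 difference was 1.10 (SE 0.22, adjusted p = 0.395, edgeR). Cdk1, the mitotic kinase itself, was at 0.675 to 1.28 CPM (median 0.946) and at 1.00 to 2.84 CPM (median 1.68). The ranges overlapped in 2 libraries on 44% fat, and the log2 difference was 0.92 (SE 0.21). Top2a, the topoisomerase that untangles chromosomes, was at 2.99 to 6.14 CPM (median 3.81) and at 5.13 to 12.1 CPM (median 7.37), with a log2 difference of 0.91 (SE 0.20). Mki67, which codes for the proliferation marker Ki-67, was at 4.05 to 9.06 CPM (median 6.95) and at 7.52 to 21.9 CPM (median 11). For Top2a and for Mki67, 5 of 8 libraries on 44% fat lay above the 10% fat range, and the log2 difference of Mki67 was 0.90 (SE 0.24). Bub1b, a kinase-like protein of the spindle checkpoint, was at 1.03 to 1.58 CPM (median 1.25) and at 1.42 to 2.19 CPM (median 1.85), with a log2 difference of 0.54 (SE 0.13).

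Other genes of the list had differences of the same sign. Cenpf and Nuf2, which work at kinetochores, gave 0.83 (SE 0.20) and 0.82 (SE 0.24) on the log2 scale. Bub1, a checkpoint kinase, gave 0.98 (SE 0.29), and Ube2c, which marks mitotic cyclins for destruction, gave 0.94 (SE 0.29). The transcription factor Foxm1, a regulator of G2 and M phase genes, gave 0.55 (SE 0.18) and the kinase Aurkb 0.84 (SE 0.25). The 5 genes that did not reach an unadjusted p under 0.05 were Plk1 (0.66), Kif23 (0.28), Aurka (0.20), Spc25 (0.14) and Mybl2 (0.15), all from edgeR. The median of the list stayed positive when any 1 library was left out, from 0.595 without male 44% fat replicate 1 to 0.803 without male 10% fat replicate 2. Without the 3 libraries that stood apart (female 10% fat replicate 4, female 44% fat replicate 2 and male 44% fat replicate 1) it was 0.62. Female 44% fat replicate 1, the library with the lowest acinar share, also stood apart but was kept in this setting. The titles carry number series that begin with 76, 80 or 89 and hold both sexes and both diets of C57BL/6J. Fitted alone, these series gave medians of 0.792, 0.636 and 0.762. In series 80 and 89, 15 and 11 of the 30 genes were higher at an unadjusted p under 0.05. The counts over all genes for these series are given in the last section. Series 76 holds only replicate 1 of each group of sex and diet, and its count is left out. In its females the mean mitosis level was 0.756 log2 CPM on 10% fat and 0.671 on 44% fat. In its males it was 0.0745 on 10% fat and 1.61 on 44% fat, in male 44% fat replicate 1, which stood apart. The positive median of series 76 thus rested on its male libraries. Over all alternatives the lowest median was 0.392, from limma on the deposited variance-stabilised log2 values.

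**Figure D1:**
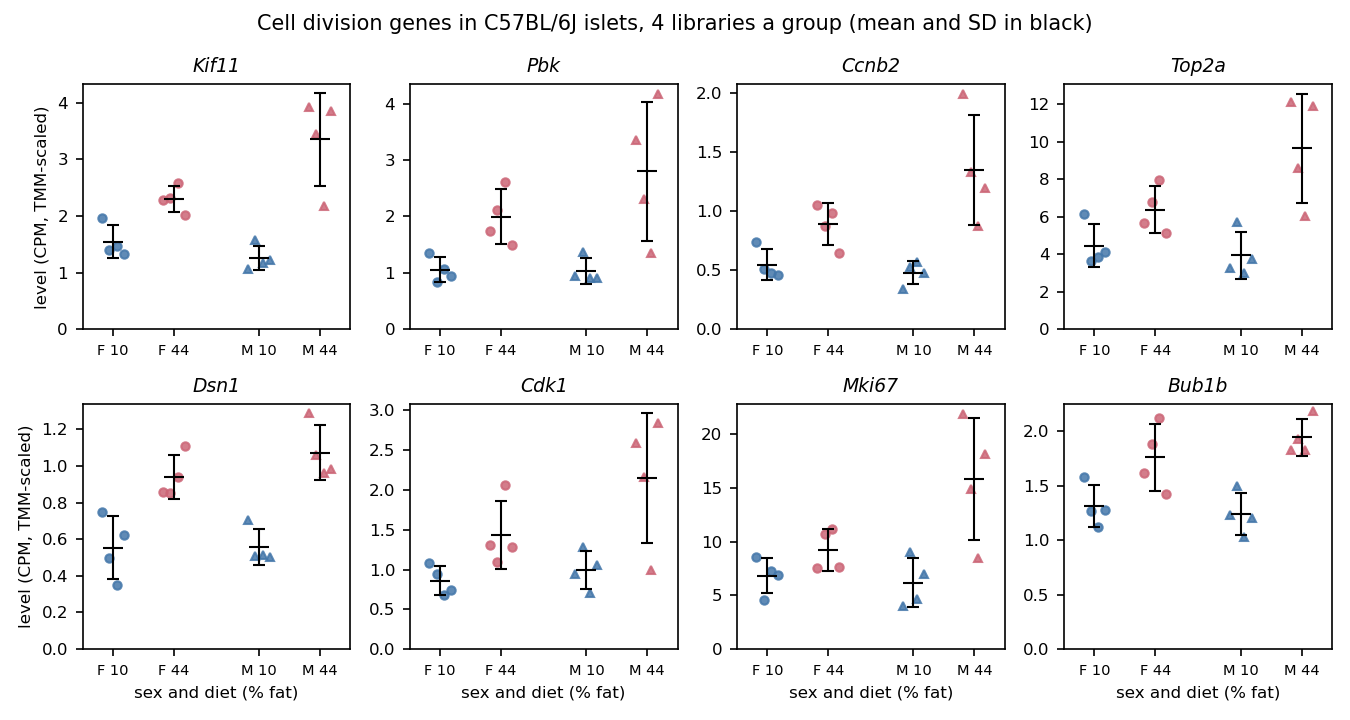
Levels of 8 cell division genes in CPM, 1 point per C57BL/6J library, with females (F) and males (M) on 10% and 44% fat on the x axis and the mean and SD of 4 libraries in black. The 8 libraries on 44% fat lie above all 8 libraries on 10% fat for Kif11 and Dsn1, while the ranges of the other genes shown overlap.

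Genes that copy DNA had smaller differences than the mitosis genes. Of 27 DNA replication genes, 20 had positive log2 differences, with a median of 0.083, and 5 were higher and 0 were lower at an unadjusted p under 0.05, beside 2.67% and 1.7% of all genes. The 5 were Mcm5, a subunit of the replicative helicase, Uhrf1, which keeps methylation on new DNA strands, Pole, a replicative polymerase, Gins2 and Mcm10. Mcm5 was at 2.65 to 3.32 CPM on 10% fat (median 2.95) and at 3.08 to 5.19 CPM on 44% fat (median 3.80), with a log2 difference of 0.37 (SE 0.11, adjusted p = 0.735, edgeR). Without male 44% fat replicate 1, female 44% fat replicate 3 or male 10% fat replicate 3, 3 of the 27 were higher. Pole gave 0.67 (SE 0.26), with 1.36 in males and -0.02 in females. Pcna, the sliding clamp of the polymerases, was at 22.7 to 32.3 CPM on 10% fat and at 25.8 to 32.4 CPM on 44% fat. Its log2 difference was 0.06 (SE 0.06), with a 95% interval of -0.07 to 0.19.

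Of 21 genes for D and E cyclins, their kinases and the inhibitors of these kinases, 3 were higher and 1 was lower at an unadjusted p under 0.05, beside 2.67% and 1.7% of all genes. Without female 44% fat replicate 1, 5 were higher. Cdkn2c, which codes for the CDK4/6 inhibitor p18, was at 5.57 to 7.42 CPM on 10% fat (median 6.28) and at 6.34 to 12.6 CPM on 44% fat (median 8.94). Its log2 difference was 0.54 (SE 0.13, adjusted p = 0.632, edgeR), and 5 of 8 libraries on 44% fat lay above the 10% fat range. Cdkn1a, which codes for the inhibitor p21, gave 0.44 (SE 0.17) and the transcription factor E2f1 gave 0.25 (SE 0.09). Cdkn1c, which codes for the inhibitor p57, was at 1.43 to 2.31 CPM on 10% fat (median 1.89) and at 1.11 to 1.87 CPM on 44% fat (median 1.46), with a log2 difference of -0.36 (SE 0.13, adjusted p = 0.985, edgeR). Ccnd2, the D cyclin of mouse beta cells, was at 996 to 1460 CPM on 10% fat and at 948 to 1430 CPM on 44% fat. For Ccnd2 the log2 difference was 0.02 with a 95% interval of -0.19 to 0.23, and that of Ccnd1 was -0.12 with an interval of -0.43 to 0.18.

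Genes of mature beta cells differed little between the diets. Of 28 beta cell identity and maturity genes, 8 had positive and 20 negative log2 differences, with a median of -0.04. In all, 0 were higher and 1 was lower at an unadjusted p under 0.05, beside 2.67% and 1.7% of all genes. No gene passed the adjusted threshold. For all 28 genes the 95% interval lay within 2-fold in either direction. The median changed sign, to 0.03, when counts were scaled to library totals, a scaling under which the median over all genes was 0.079 in place of 0.0035.

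Ins1 was at 24800 to 35300 CPM on 10% fat (median 32100) and at 26000 to 38100 CPM on 44% fat (median 32300). The log2 difference was -0.0019 with a 95% interval of -0.22 to 0.22. Ins2 gave 0.06 with an interval of -0.17 to 0.30, and Iapp, the gene of the amyloid peptide released with insulin, gave -0.04 with an interval of -0.27 to 0.19. These are levels of RNA, and insulin secretion was not measured in these files.

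Slc2a2, through which mouse beta cells take up glucose (chromosome 3, 28697903 to 28731359), was at 612 to 1110 CPM on 10% fat (median 827) and at 548 to 959 CPM on 44% fat (median 812). Its log2 difference was -0.03 with a 95% interval of -0.30 to 0.24. G6pc2, whose enzyme removes the phosphate from glucose-6-phosphate, was at 1490 to 2890 CPM (median 2140) and at 1700 to 3770 CPM (median 2580). For G6pc2 the log2 difference was 0.29 (SE 0.17) with an interval of -0.06 to 0.65, and the groups overlapped in 6 libraries on 44% fat.

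Mafa, a transcription factor of mature beta cells that activates the insulin gene (chromosome 15, 75746843 to 75747922), was the 1 gene of the list at an unadjusted p under 0.05. It was at 41.1 to 80.5 CPM on 10% fat (median 53.7) and at 32.9 to 68.2 CPM on 44% fat (median 43.6). The ranges overlapped, the 2 highest libraries were males on 10% fat, at 80.5 and 73.3 CPM, and the log2 difference was -0.33 (SE 0.15, adjusted p = 1.00, edgeR). Its value was between -0.54 and -0.22 across the alternatives, and 0 of the 28 genes were lower at an unadjusted p under 0.05 without female 10% fat replicate 1 or 3, female 44% fat replicate 3 or 4, male 10% fat replicate 1 or male 44% fat replicate 2. Pdx1, another insulin gene activator, gave -0.16 (SE 0.12), Nkx6-1 gave 0.03 (SE 0.11) and Ucn3, a peptide of mature beta cells, gave -0.07 (SE 0.11). Slc30a8, the zinc transporter of the granule, gave -0.13 (SE 0.07), with -0.24 in females and -0.03 in males.

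Markers of immature or failing beta cells gave no difference past the threshold. Of 13 such genes listed, 9 could be tested, with 0 higher and 0 lower at an unadjusted p under 0.05. Without male 44% fat replicate 1, 3 of the 9 were lower. The count of all lower genes was also at its highest without that library, as given in the last section. Aldh1a3, a dehydrogenase of dedifferentiated beta cells, was at 1.62 to 5.50 CPM on 10% fat (median 2.19) and at 1.87 to 5.48 CPM on 44% fat (median 3.29). For Aldh1a3 the log2 difference was 0.27 (SE 0.22). Neurog3, the factor of endocrine progenitors, gave -0.39 (SE 0.21). The gut hormone genes Cck and Gast fell below the expression filter, with at most 0.0864 and 0.194 CPM in any library. Of 22 genes that mature beta cells normally repress, 0 were higher and 0 were lower, with a median of -0.08. Without male 44% fat replicate 1, where more of all genes were lower too, 7 of the 22 were lower and the median was -0.195. Number series 76, 80 and 89 fitted alone gave medians of 0.221, -0.331 and -0.0448.

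**Figure D2:**
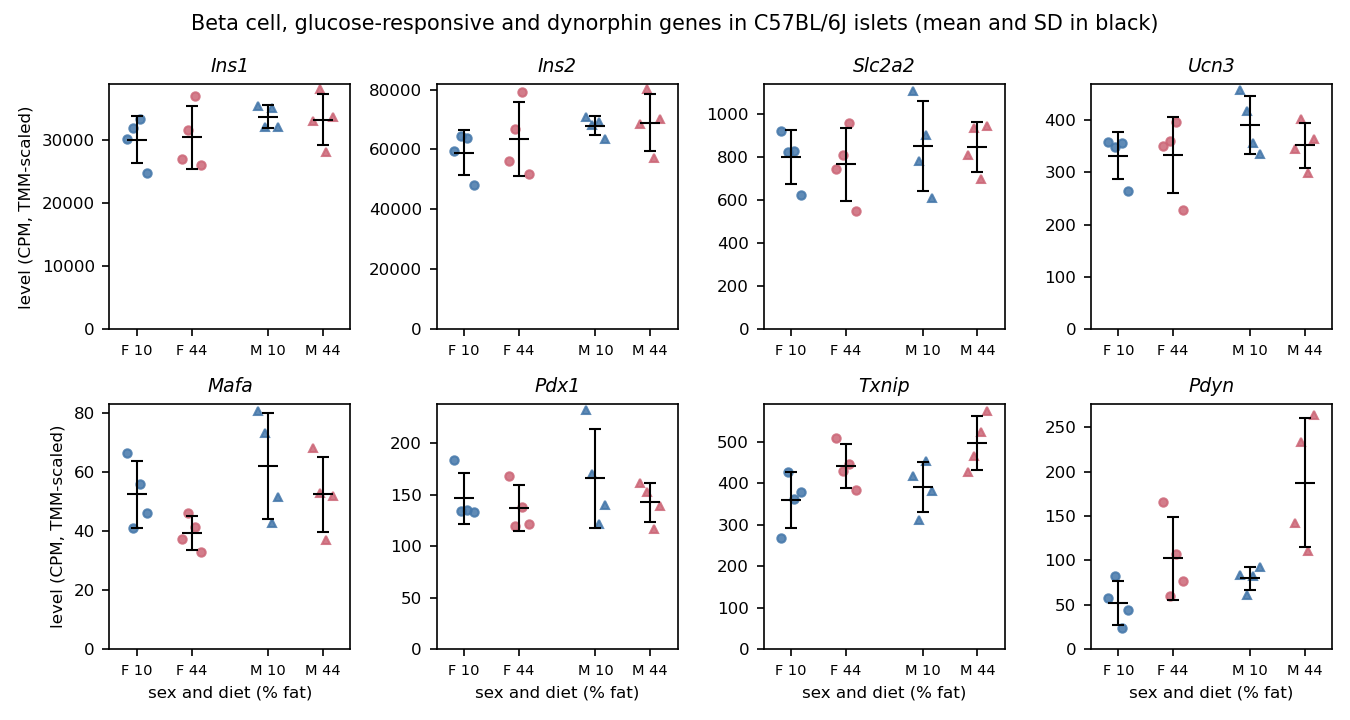
Levels of 6 beta cell genes, Txnip and Pdyn in CPM, 1 point per C57BL/6J library, by sex (F, M) and diet (% fat), with the mean and SD of 4 libraries in black. The diets overlap for each gene, and for Mafa the median is 53.7 CPM on 10% fat and 43.6 CPM on 44% fat.

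Over all genes, 2.67% were higher and 1.7% lower at an unadjusted p under 0.05. Among 20 genes of the insulin granule and of proinsulin processing, 1 was higher and 0 were lower at that level. This was Vgf, the precursor of peptides stored in granules, at 10.7 to 22.1 CPM on 10% fat (median 14.6) and at 15.2 to 32.9 CPM on 44% fat (median 20.9). Its log2 difference was 0.57 (SE 0.16, adjusted p = 0.735, edgeR), and the highest library was female 44% fat replicate 1. The processing enzyme gene Pcsk1 gave -0.0006, with a 95% interval of -0.22 to 0.22, and the granins Chga and Chgb gave -0.06 and -0.07. Of 20 exocytosis genes, 0 were higher and 0 lower, and the 95% interval lay within 2-fold for all 20.

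The other islet hormones also overlapped between the diets. Gcg, the glucagon gene of alpha cells, was at 20300 to 32600 CPM on 10% fat (median 28000) and at 12200 to 63200 CPM on 44% fat (median 28200). The highest value was in female 44% fat replicate 1, the library with the lowest acinar share, and the lowest was in male 44% fat replicate 2. Gcg gave a log2 difference of 0.15 (SE 0.21), the somatostatin gene Sst of delta cells 0.13 (SE 0.14) and the pancreatic polypeptide gene Ppy 0.13 (SE 0.33). Ghrl, the ghrelin gene of epsilon cells, gave -0.54 (SE 0.30).

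Pdyn, the precursor of dynorphin peptides and a gene on the delta cell list, had a larger difference than the hormone of that cell type (chromosome 2, 129686565 to 129699844). It was at 24.3 to 92.4 CPM on 10% fat (median 71.6) and at 59.5 to 264 CPM on 44% fat (median 126). On 44% fat, 6 of 8 libraries lay above the 10% fat range, and female 44% fat replicates 2 and 4 did not, at 59.5 and 76.4 CPM. The log2 difference was 1.10 (SE 0.27, adjusted p = 0.700, edgeR), or 0.954 with the acinar level as a covariate. The 7 other delta cell genes tested lay between -0.04 and 0.20.

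Genes that answer to glucose and lipids showed small differences. Txnip, which binds thioredoxin and is induced by glucose through ChREBP (chromosome 3, 96557957 to 96561883), was at 267 to 454 CPM on 10% fat (median 381) and at 383 to 575 CPM on 44% fat (median 456). The groups overlapped in part, and 4 of 8 libraries on 44% fat lay above the 10% fat range. The log2 difference was 0.32 (SE 0.10, adjusted p = 0.797, edgeR). Its relative Arrdc4, also a ChREBP target, was at 17.6 to 28.9 CPM (median 22.1) and at 23.7 to 37.9 CPM (median 26.9), with a log2 difference of 0.36 (SE 0.12). These were the 2 genes of 11 ChREBP targets at an unadjusted p under 0.05, where 2.67% of all genes were higher. The median of the list was 0.02. The lipogenic targets Fasn and Elovl6 gave -0.09 (SE 0.10) and 0.10 (SE 0.08).

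Of 29 genes that burn fatty acids or answer to PPAR receptors, 1 was higher and 3 were lower at an unadjusted p under 0.05. The shares of all genes were 2.67% and 1.7%. The higher gene was Ppargc1a, a coactivator of mitochondrial genes, with 0.41 (SE 0.16), and the lower were the receptor gene Ppard (-0.13), Eci1 (-0.15) and Acadm (-0.14), enzymes of beta oxidation. Without male 44% fat replicate 2, male 10% fat replicate 2, female 10% fat replicate 4 or female 44% fat replicate 4, 0 of the 29 were lower. Cpt1a, which lets fatty acids into mitochondria, gave -0.03 with a 95% interval of -0.30 to 0.24. The lipid droplet gene Plin2 gave 0.09 with an interval of -0.12 to 0.31. The desaturase Scd1 gave -0.31 (SE 0.21), and its lowest value, 3.59 CPM, was in female 44% fat replicate 1.

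For 6 metabolic and housekeeping lists the 95% interval of each gene lay within 2-fold in either direction. These were glycolysis (18 genes), the citric acid cycle (23), nuclear oxidative phosphorylation (33, median -0.04), mitochondrially encoded respiratory chain transcripts (13, median 0.07), cytosolic ribosomal proteins (36, median -0.08) and cholesterol synthesis (25). The same held for 33 genes of endoplasmic reticulum chaperones and the unfolded protein response, with a median of -0.09 and 0 genes at an unadjusted p under 0.05. The number series differed in sign for some of these lists. Fitted alone, series 76, 80 and 89 gave ribosomal protein medians of 0.301, -0.18 and -0.232. In series 89, 28 of these genes were lower at an unadjusted p under 0.05. For the unfolded protein response the medians were -0.061, 0.151 and -0.27, with 19 genes lower in series 89. The count of all genes lower in series 89 is given in the last section. Scaled to library totals, the ribosomal median was 0.0125. With single libraries left out it went from -0.116 without female 44% fat replicate 1, where 6 genes were lower, to -0.0401 without female 10% fat replicate 4, and that of the unfolded protein response from -0.144 without male 10% fat replicate 2 to -0.0344 without female 10% fat replicate 3. Hspa5, the chaperone BiP, was at 1010 to 2100 CPM on 10% fat and at 1070 to 1930 CPM on 44% fat, with a log2 difference of -0.09 (SE 0.15).

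Of 23 genes of the ATF4 branch of the stress response, 19 had negative log2 differences, with a median of -0.17. At an unadjusted p under 0.05, 0 were higher and 2 lower, beside 2.67% and 1.7% of all genes. The 2 were Slc7a5 and Slc3a2, the subunits of an amino acid exchanger. Slc7a5 was at 114 to 184 CPM on 10% fat (median 132) and at 93.0 to 154 CPM on 44% fat (median 106), with a log2 difference of -0.31 (SE 0.11). Slc3a2 gave -0.15 (SE 0.06). Without female 44% fat replicate 1, 7 of the 23 were lower, and without male 44% fat replicate 2 or male 10% fat replicate 4, 4 were. The count of all lower genes also changed with single libraries left out, over the range given in the last section. Asns, which makes asparagine, gave -0.23 (SE 0.12), and Ddit3, which codes for CHOP, gave -0.12 (SE 0.15).

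Of 20 insulin and IGF signalling genes, the receptor substrates Irs2 (0.30, SE 0.11) and Irs1 (0.25, SE 0.09) were higher at an unadjusted p under 0.05. The kinase Akt2 (-0.15, SE 0.05) was lower. At that level 2.67% of all genes were higher and 1.7% lower. Irs2 was at 39.4 to 66.8 CPM on 10% fat and at 53.2 to 85 CPM on 44% fat. Without the 3 libraries that stood apart its log2 difference was 0.192. Of 18 islet G protein-coupled receptors tested, the galanin receptor Galr1 (-0.26, SE 0.08) and the short-chain fatty acid receptor Ffar3 (-0.23, SE 0.09) were lower, and the purine receptor P2ry1 (0.60, SE 0.28) was higher. Without female 10% fat replicate 1, 0 of these receptors were higher, and without male 10% fat replicate 1, 1 was lower. Glp1r, the receptor of the incretin GLP-1, gave -0.05 with a 95% interval of -0.27 to 0.18. Prlr, the prolactin receptor, gave -0.13 (SE 0.15).

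A few genes outside the lists were chosen after their values were seen. Hpgds, a prostaglandin D synthase, was at 7.84 to 12.1 CPM on 10% fat (median 9.77) and at 9.86 to 16.2 CPM on 44% fat (median 14.2). Here 7 of 8 libraries on 44% fat lay above the 10% fat range, the exception being male 44% fat replicate 1, and the log2 difference was 0.49 (SE 0.09, adjusted p = 0.395, edgeR). Without that library the difference was 0.558 and passed the threshold (adjusted p = 0.00687, edgeR). Leaving out any other single library did not bring Hpgds past the threshold. Crhr1, a receptor of corticotropin-releasing hormone and urocortin, was at 0.859 to 1.61 CPM (median 1.46) and at 0.975 to 4.22 CPM (median 2.17), with a log2 difference of 0.86 (SE 0.22). Its difference was between 0.196 in number series 76 alone and 1.20 in number series 80 alone. Rasd2, a small GTPase, gave 0.83 (SE 0.20). Mc5r gave 2.79 (SE 0.68) at levels of 0.0169 to 0.554 CPM on 10% fat and 0.00903 to 2.35 CPM on 44% fat, and the lowest of all 16 libraries was on 44% fat.

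**Figure D3:**
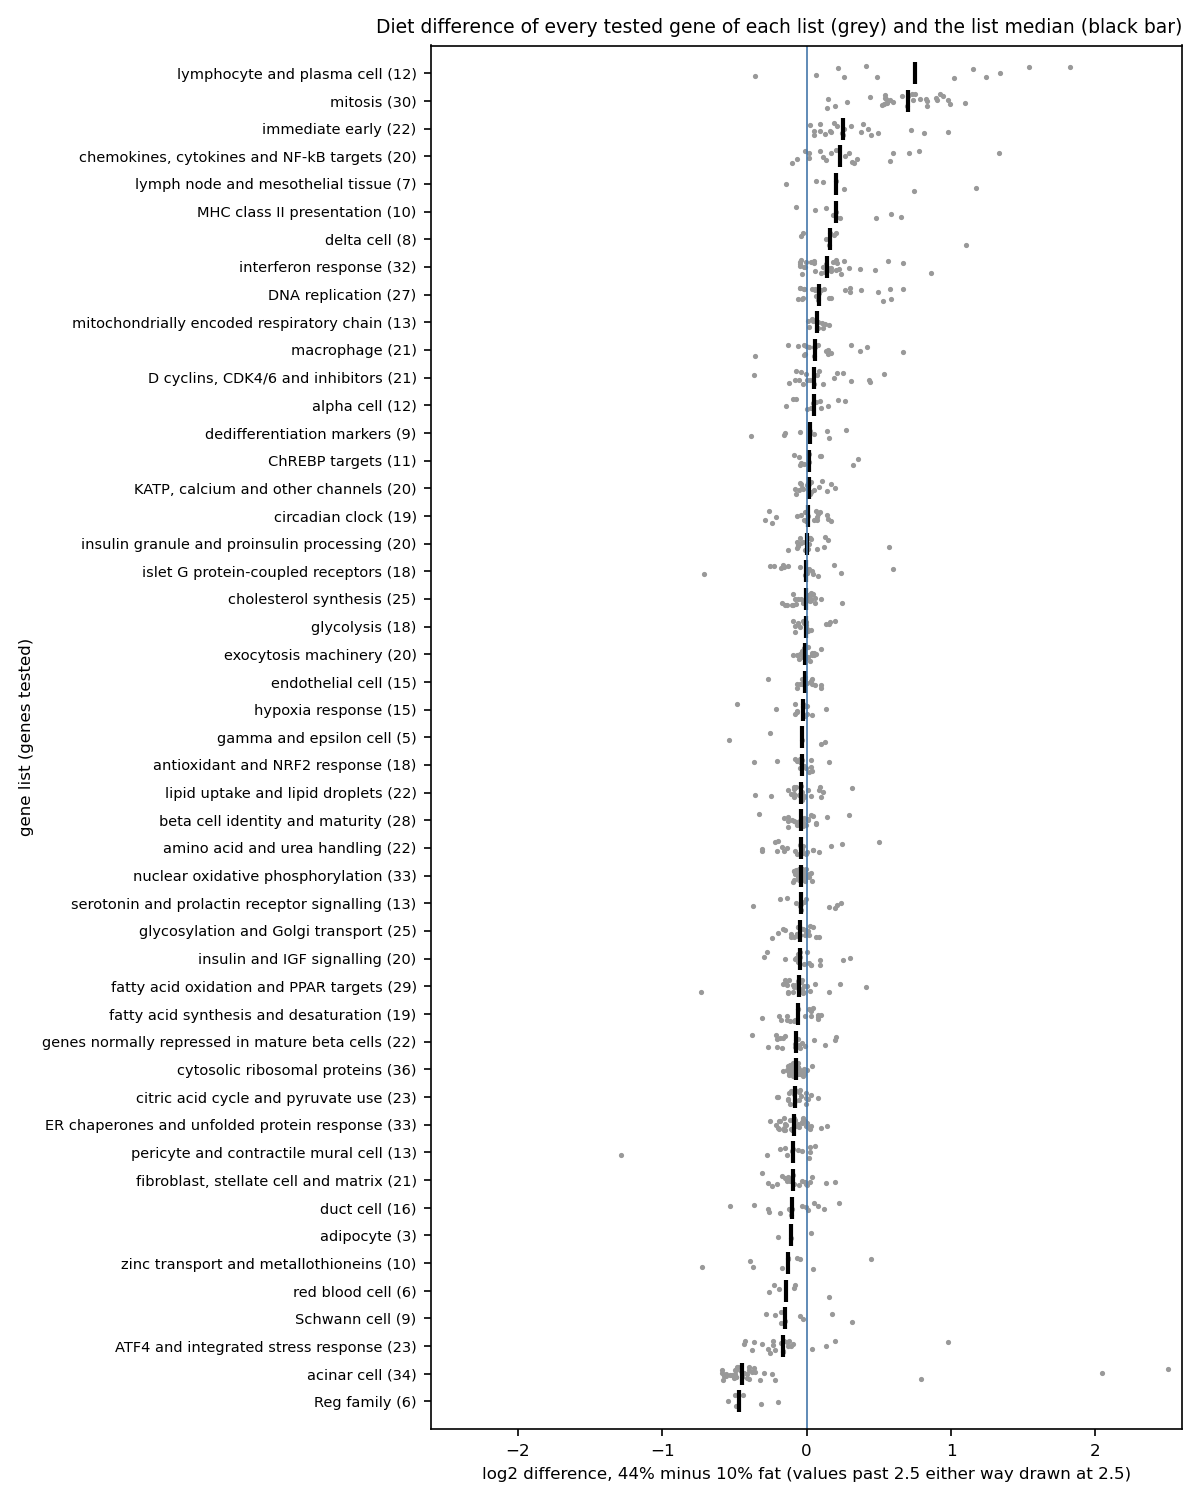
Log2 difference (44% minus 10% fat) of each tested gene (grey points) of each of the 49 lists in C57BL/6J islets, with the list median as a black bar and values past 2.5 drawn at 2.5. All 30 mitosis genes lie above 0 with a median of 0.70, the 12 lymphocyte genes spread from -0.356 to 1.82, and the acinar median is -0.451.

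Immune and interferon genes showed small positive medians. Of 21 macrophage genes tested, 14 had positive log2 differences, with a median of 0.06, and 0 were higher and 0 lower at an unadjusted p under 0.05. Without female 44% fat replicate 4, 3 were higher and the median was 0.124, while it was 0.0119 without male 10% fat replicate 4 and 0.00888 without the 3 libraries that stood apart. Adgre1, which codes for the macrophage receptor F4/80, was at 4.43 to 9.35 CPM on 10% fat (median 5.45) and at 3.22 to 6.38 CPM on 44% fat (median 5.37). The complement gene C1qc gave 0.05 with a 95% interval of -0.20 to 0.29. Of 10 genes of MHC class II presentation, 9 had positive differences, with a median of 0.20. At an unadjusted p under 0.05, 4 were higher, beside 2.67% of all genes. Cd74, the invariant chain, was at 103 to 146 CPM on 10% fat and at 106 to 169 CPM on 44% fat, with a log2 difference of 0.20 (SE 0.10). The others were H2-DMa (0.23), H2-Aa (0.21) and H2-Eb1 (0.18). Without female 44% fat replicate 1, male 44% fat replicate 2 or male 10% fat replicate 3, 0 of the 10 were higher at that level, with the median between 0.123 and 0.256 over all single libraries left out.

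Of 32 interferon response genes, 24 had positive differences, with a median of 0.14. At an unadjusted p under 0.05, 2 were higher, beside 2.67% of all genes. Mx1, an antiviral GTPase, was at 0.155 to 0.641 CPM on 10% fat (median 0.344) and at 0.244 to 1.55 CPM on 44% fat (median 0.644). Its highest value was in female 44% fat replicate 2, the library with NZO/HlLtJ transcripts, and its log2 difference was 0.86 (SE 0.31). B2m, the light chain of MHC class I, gave 0.23 (SE 0.10). The count of higher genes went from 1 without female 44% fat replicate 1 to 7 without female 44% fat replicate 4. Of 12 lymphocyte and plasma cell genes tested, 11 had positive differences, with a median of 0.753. Without male 44% fat replicate 2, which had the highest share of these transcripts (0.00691% of the counts), the median was -0.110.

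The share of counts from other cell types was followed with 15 lists, and an exact permutation test of the diets within each sex (4900 arrangements, two-sided) was run on each. No list passed: the exact permutation p-values were between 0.208 and 0.878, and the smallest adjusted p was 0.834. The acinar share was 2.13% to 26.8% on 10% fat (median 6.64%) and 0.259% to 16.6% on 44% fat (median 3.93%), a mean log2 difference of -0.741 (exact permutation p = 0.419, adjusted p = 0.834). It was -1.48 in females and -0.00376 in males. Over the 34 acinar genes the median log2 difference was -0.451, and it was 0.0394 without female 10% fat replicate 4. With the acinar level as a covariate, 0 genes passed the adjusted threshold of edgeR and the mitosis median was 0.76. This covariate was the mean log2 CPM of the same 34 acinar genes in each library, so a smaller acinar difference was fixed in advance. With the covariate the median of the Reg family, secreted proteins of acinar cells, went from -0.466 to 0.203. That of the acinar genes went from -0.451 to -0.153 and that of the immediate early genes from 0.249 to 0.146. The endothelial share was 0.0658% to 0.113% on 10% fat and 0.0815% to 0.109% on 44% fat, and the fibroblast share 0.0705% to 0.16% and 0.0746% to 0.123%. Of 10 adipocyte genes 4 were in the matrix, and these did not include Adipoq and Plin1, which define that cell type.

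Immediate early genes, which cells switch on soon after a stimulus, had positive differences for 22 of 22 genes, with a median of 0.25. Of these, 1 was higher at an unadjusted p under 0.05, beside 2.67% of all genes. This was Myc (0.39, SE 0.18). The list rested on single libraries. Fos was at 136 to 643 CPM on 10% fat (median 178) and at 50.4 to 1110 CPM on 44% fat (median 173). Its 3 highest values were in female 44% fat replicate 1 (1110 CPM), male 44% fat replicate 1 (689 CPM) and male 10% fat replicate 1 (643 CPM), all in number series 76. The median of the list was -0.148 without female 44% fat replicate 1, and fitted alone the series gave 0.985 (76), -0.75 (80) and 0.000761 (89). Kif11, fitted in the same way, gave 1.03, 0.897 and 1.09.

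**Figure D4:**
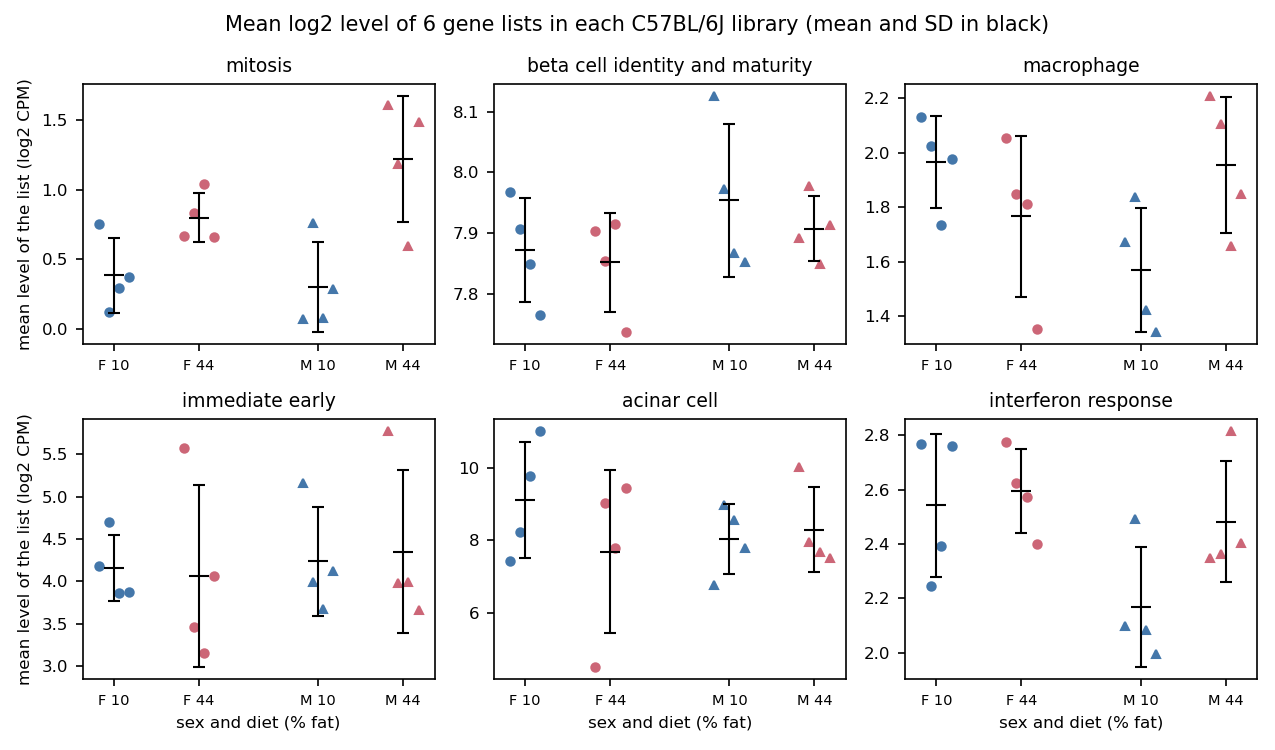
Mean log2 CPM of 6 gene lists in each C57BL/6J library, by sex (F, M) and diet (% fat), with the mean and SD of 4 libraries in black. The mitosis level is highest in male 44% fat replicates 1 and 4, at 1.61 and 1.49, and immediate early genes are highest in male 44% fat replicate 1 and female 44% fat replicate 1, at 5.78 and 5.58.

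The sexes were also fitted separately within 1 model of the 4 groups. In females 0 genes passed the adjusted threshold of edgeR, with 254 genes higher (1.37%) and 385 lower (2.07%) at an unadjusted p under 0.05. In males 0 passed as well, with 683 higher (3.68%) and 208 lower (1.12%), and the smallest adjusted p was 0.0521. DESeq2 called 1 gene higher and 0 lower in females, and 48 higher and 1 lower in males. The difference between the sexes in the diet effect was past the threshold for 0 genes in edgeR (smallest adjusted p 0.799). At an unadjusted p under 0.05, 659 genes (3.55%) had the more positive effect in males and 166 (0.895%) in females. DESeq2 called 6 genes with the more positive effect in males, named after their values were seen: Itgb7, Acap1, Gimap3, Ms4a4b, Igha and H2-Q7, several of them genes of lymphocytes and plasma cells. It called 1 in females. Beside this, the 12 lymphocyte and plasma cell genes had a median of 3.15 in males and -0.885 in females. Male 44% fat replicate 2 held 0.00691% of its counts in these transcripts and the other 15 libraries 0.001% to 0.00261%, and the part of that library in the DESeq2 calls was not tested.

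The mitosis genes had a median log2 difference of 0.988 in males and 0.411 in females, and all 30 were positive in either sex. In males 26 were higher at an unadjusted p under 0.05 and in females 5, and the difference between the sexes itself was past that level for 6 of the 30, beside 3.55% of all genes. Kif11 gave 1.41 in males and 0.57 in females, and the difference of 0.83 was past the unadjusted level but not the adjusted one in edgeR. In males, 3 of the 4 libraries on 44% fat had the highest Mki67 of the 16, at 21.9, 18.2 and 14.9 CPM, and the fourth was at 8.49 CPM, within the 10% fat range of 4.05 to 9.06 CPM. In females Mki67 was at 8.54, 4.59, 7.27 and 6.94 CPM on 10% fat and at 7.52, 10.7, 11.2 and 7.63 CPM on 44% fat.

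Several lists of other cell types had medians of opposite sign in the sexes. The macrophage median was -0.172 in females and 0.194 in males, that of chemokines, cytokines and NF-kB targets -0.226 and 0.533, that of duct genes -0.471 and 0.272, and that of genes repressed in mature beta cells -0.414 and 0.21. At an unadjusted p under 0.05 the sexes differed for 7 of 21 macrophage genes, 7 of 16 duct genes and 7 of 22 repressed genes, each time with the more positive effect in males, beside 3.55% of all genes. In the other order, alpha cell genes had medians of 0.217 in females and -0.152 in males, gamma and epsilon cell genes 0.0607 and -0.213, and Schwann cell genes 0.0764 and -0.178. Delta cell genes had a positive median in both, 0.27 and 0.121. Number series changed these lists too: fitted alone, series 76, 80 and 89 gave duct medians of 0.302, -0.611 and -0.15. The acinar median followed the same order, at -1.23 in females and 0.35 in males. The genes with the smallest p for the difference between the sexes were Apcs, H2-Q7, Itgb7, Cd209f, Plbd1 and Il18r1, with an adjusted p of 0.799 for each (edgeR). H2-Q7, an MHC class I gene of a family of near copies, gave -0.37 in females and 1.68 in males. Itgb7, an integrin of lymphocytes, gave -0.81 and 2.19.

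The diet effect in C57BL/6J was then set against that in the other strains with an interaction test in the model of all 45 libraries, over 20306 genes. Against NZO/HlLtJ, the effect in C57BL/6J was more positive for 1741 genes (8.57%) and more negative for 1802 (8.87%). Some libraries of the other strains carried transcripts of another strain above 1% of its level: CAST/EiJ female 44% fat replicates 1, 2 and 4, NZO/HlLtJ female 10% fat replicate 3 and NZO/HlLtJ male 44% fat replicate 3. Leaving them out keeps only replicate 3 of CAST/EiJ female 44% fat and replicates 1 and 2 of NZO/HlLtJ male 44% fat. The loss of foreign transcripts and the loss of libraries cannot be told apart there. Without these 5 libraries the counts were 855 and 787, and without NZO/HlLtJ male 44% fat replicate 3 alone they were 1199 and 1132.

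Of 28 beta cell genes, 15 had a more positive effect in C57BL/6J than in NZO/HlLtJ and 0 a more negative one. The shares of all genes were 8.57% and 8.87%. Slc2a2 gave an effect of 1.04 more in C57BL/6J than in NZO/HlLtJ on the log2 scale, Ucn3 1.10, Nkx6-1 0.91, Slc30a8 0.88 and Glp1r 0.93, all with an adjusted p under the threshold (edgeR). The median of the 28 beta cell genes was -0.04 in C57BL/6J, -0.52 in NZO/HlLtJ and 0.03 in CAST/EiJ. Without the 5 libraries the counts were 10 and 0. Among those that did not pass were Ins1 (0.19, adjusted p = 0.526), Ins2 (0.30, 0.266), Iapp (-0.10, 0.741), Mafa (0.32, 0.520) and Pdx1 (0.39, 0.216), with adjusted p-values from edgeR. Against CAST/EiJ, 0 of the 28 passed. The next counts are again against NZO/HlLtJ, where 8.87% of all genes were more negative. The counts of all genes without the 5 libraries are given above. Of 22 macrophage genes, 20 were more negative (18 without the 5 libraries), as were 7 of 10 MHC class II genes (7) and 24 of 32 interferon response genes (12). Adgre1 differed by -2.08, Cd74 by -1.70 and the collagen Col3a1 by -1.59. Txnip and Arrdc4 differed by -0.94 and -0.99.

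The mitosis genes had positive medians in both strains, 0.70 in C57BL/6J and 1.46 in NZO/HlLtJ, beside 0.04 in CAST/EiJ. The strain effects come from separate libraries. Of all genes, 8.57% were more positive and 8.87% more negative in C57BL/6J than in NZO/HlLtJ. Of 30, 1 was more positive and 11 more negative in C57BL/6J than in NZO/HlLtJ, or 0 and 1 without the 5 libraries. Bub1b differed by -1.04 and Aurkb by -1.02, which did not pass without the 5 libraries (adjusted p = 0.0631 and 0.156, edgeR), while Kif11 gave 0.99 in C57BL/6J and 1.47 in NZO/HlLtJ, a difference of -0.48 (adjusted p = 0.104, edgeR). Of 27 DNA replication genes, 18 were more negative in C57BL/6J, or 5 without the 5 libraries.

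Against CAST/EiJ, 3 genes passed (0.0148%), all with the more negative effect in C57BL/6J: 2210418O10Rik, 9930111J21Rik2 and Gm12174. Leaving out any 1 of CAST/EiJ female 44% fat replicates 1, 2 and 4 left 1 gene passing in edgeR. Leaving out all 5 libraries keeps only replicate 3 of that group, so no count is given for that setting. In CAST/EiJ, Gm12174 was at 20.8, 10.4 and 9.92 CPM in female 44% fat replicates 1, 2 and 4, which carry transcripts of another strain, and at 0.317 to 1.06 CPM in the other 12 libraries. Among genes with a mean of at least 1 CPM and a symbol that is no clone or model name, Kif11 had the smallest p for a difference from CAST/EiJ, at 0.83 (SE 0.20, adjusted p = 0.354, edgeR). Of the 49 lists, 0 held a gene past the threshold for a difference from CAST/EiJ.

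**Figure D5:**
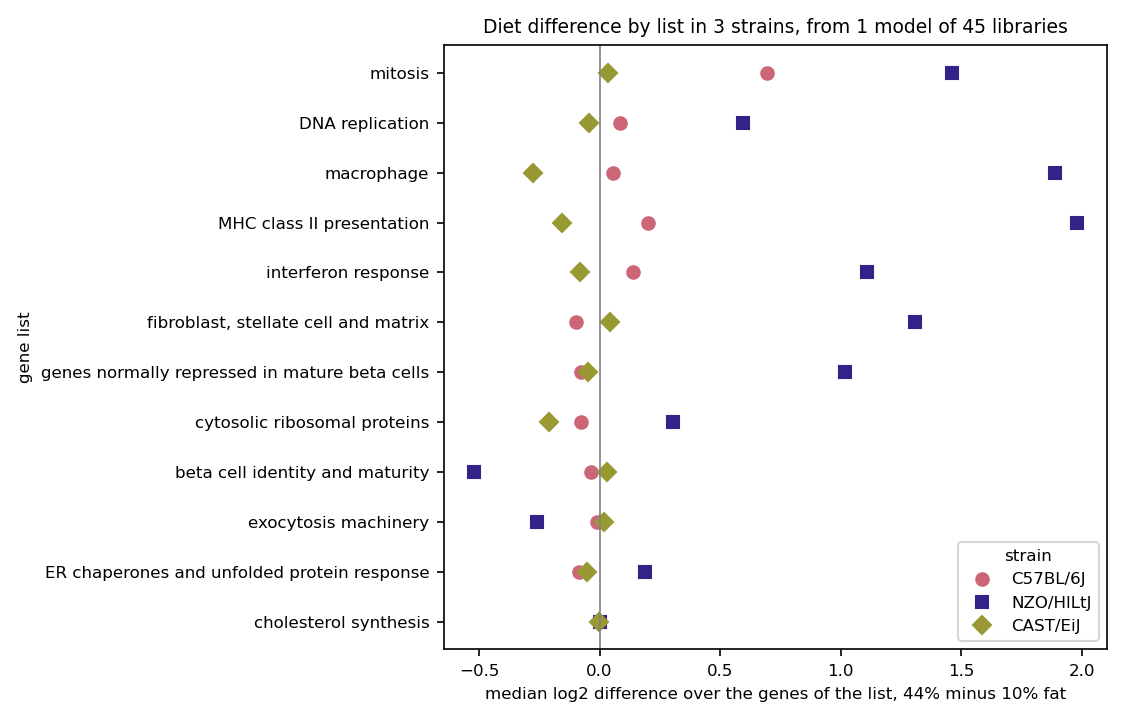
Median log2 difference (44% minus 10% fat) of 12 gene lists in C57BL/6J, NZO/HlLtJ and CAST/EiJ islets, from the model of all 45 libraries. In NZO/HlLtJ the macrophage and MHC class II medians are 1.89 and 1.98 and the beta cell median is -0.52, while in C57BL/6J these are 0.05, 0.20 and -0.04.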

How the data were processed

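RNA from islets was measured in 45 libraries, of which 16 from C57BL/6J entered the main comparison. The deposited matrix holds estimated counts for 22904 genes (23.6% of values are not whole), which were rounded here. The sources used here do not give an aligner or counter. The submitters' processing notes name GRCm38 and DESeq2, without a role. A second matrix holds the authors' variance-stabilised log2 values, used as an alternative. The deposited annotation, per the file headers, gives gene positions.

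Genes were kept with filterByExpr, scaled with TMM and tested with edgeR 4.0.16 (R 4.3.3; quasi-likelihood F test, robust) with sex and diet as terms, and p-values were adjusted by Benjamini-Hochberg over all tested genes (threshold 0.05). The sexes were fitted as 4 groups, and the strain differences over all 45 libraries. Alternatives used limma 3.58.1, DESeq2 1.42.0, other scalings and filters, the number series in the titles, an acinar covariate and single libraries left out. The script was tested on simulated data. No pair of libraries was a duplicate by a chi-square check of counts.

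Named are called genes, list members, a set of islet genes named in all cases, and up to 6 genes with the smallest p for each difference between sexes or strains. Exceptions are said to be chosen after their values were seen, and 1 gene that the rule names is not reported here. The comparison and the 49 lists (913 genes) were chosen with earlier results of these data known. Depth was 57.2 to 102 M counts. How much of the error came from counting and how much from the spread between libraries was not tested. Counts of a family of near copies or of overlapping genes may be shared between members.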

Additional observations from a re-analysis of the deposited data

Results flagged for a closer look

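Among 376 groups of 4 C57BL/6J libraries (named genes and marker shares), 25 had 1 library far from the other 3 by Dixon's test, 6.65% of groups, where chance gives about 5%. Female 44% fat replicate 1 and male 44% fat replicate 1 gave 5 each. Immediate early genes stood out in these libraries, with Fos at 1110 CPM, Egr1 at 924 CPM and Atf3 at 88.4 CPM in female 44% fat replicate 1, and Atf3 at 66.7 CPM in male 44% fat replicate 1 and 21.8 CPM in male 10% fat replicate 1. In female 44% fat replicate 1, Acot2, a mitochondrial thioesterase, was at 8.04 CPM and the trypsinogen gene Prss1 at 2.45 CPM. Prss1 was at 36.4 CPM in male 44% fat replicate 2 and at 0.314 CPM in male 10% fat replicate 2. Male 44% fat replicate 1 had an acinar share of 16.6%, the chymotrypsinogen gene Ctrb1 at 20300 CPM, the duct keratin Krt19 at 13.0 CPM and a fibroblast share of 0.11%. Male 44% fat replicate 2 had a lymphocyte share of 0.00691% and the granin Chga at 13400 CPM. Male 10% fat replicate 2 had a duct share of 0.0777%, Cd74 at 144 CPM and Pbk at 1.37 CPM. Other such values were Dsn1 at 0.707 CPM in male 10% fat replicate 1, Mcm5 at 3.32 CPM and Pdx1 at 184 CPM in female 10% fat replicate 1, and Ucn3 at 264 CPM in female 10% fat replicate 4. The rest were Neurog3 at 2.46 CPM in male 10% fat replicate 3, Cib3 at 4.28 CPM in male 10% fat replicate 4 and a red blood cell share of 0.0225% in female 44% fat replicate 2.

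The diet effect of 32 named genes differed between C57BL/6J and NZO/HlLtJ by an interaction test (edgeR, adjusted p under 0.05). Of these, 16 were more positive in C57BL/6J and 16 more negative, beside 8.57% and 8.87% of all genes. Cib3, Eno2, Emilin2, Tmem25, Adgre1 and Scarf2 were picked by their smallest p in this same test, so that they passed was fixed in advance. Hpgds, Crhr1, Rasd2 and Mc5r were chosen after their positive diet effect in C57BL/6J was seen. That effect is part of the difference from NZO/HlLtJ, so the choice favoured a more positive difference. In log2 units, the more positive beta cell genes were Slc2a2 (1.04), G6pc2 (0.78), Ucn3 (1.10), Nkx6-1 (0.91), Slc30a8 (0.88) and Glp1r (0.93). Also more positive were Ccnd2 (0.65), Sst (0.47), Prlr (0.69), Crhr1 (1.82), Mc5r (2.92), Rasd2 (1.44), Hpgds (1.14), Cib3 (3.35), the glycolytic enzyme Eno2 (0.75) and Tmem25 (1.15). More negative cell cycle genes were Bub1b (-1.04), Aurkb (-1.02), Mcm5 (-0.81), Pcna (-0.32) and Uhrf1 (-1.20). More negative immune and matrix genes were Adgre1 (-2.08), C1qc (-1.93), Cd74 (-1.70), Col3a1 (-1.59), Emilin2 (-2.66) and Scarf2 (-1.46). The remaining more negative genes were Gast (-2.17), Chgb (-0.89), Txnip (-0.94), Arrdc4 (-0.99) and Scd1 (-1.11). Without the 5 libraries of the other strains that carried transcripts of another strain, 6 of these 32 did not pass: Bub1b (adjusted p = 0.0631, edgeR), Aurkb (0.156), Pcna (0.159), G6pc2 (0.0921), Sst (0.0796) and Prlr (0.177). Against CAST/EiJ the differences were -4.13 for 2210418O10Rik, -5.75 for 9930111J21Rik2 and -2.12 for Gm12174, and none of the 3 passed without those libraries, where edgeR called 0 genes.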

How the results depend on the processing

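No paired analysis was possible because replicate numbers only name libraries and link none across groups. Leaving out the 3 libraries that stood apart, and leaving out libraries of other strains with foreign transcripts, were chosen after seeing the data. Female 44% fat replicate 1, which also stood apart, was kept when the 3 were left out. For the diet effect, the 0 genes called higher became 2 with library totals, 20 with DESeq2, 5 with all 45 libraries in 1 model and 0 to 1 with single libraries left out. The 0 called lower became 1 with DESeq2. Where list counts are given with single libraries left out, the count of all lower genes changed too, as given next. Genes higher at an unadjusted p under 0.05 went from 495 to 835 with the number series as a factor, 884 in series 80 alone, 755 in series 89 alone and 1014 without the 3 libraries. Those lower went from 315 to 13 (totals), 187 (45 libraries), 474 (series factor), 859 (series 80), 932 (series 89) and 614 (without the 3), and to 206 to 669 with single libraries left out, the extremes without male 44% fat replicates 4 and 1.

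In females, 0 called higher became 1 with DESeq2. There, 254 higher at an unadjusted p under 0.05 became 393 (totals), 385 (series factor), 513 (without the 3) and 171 to 401 (single libraries left out). In females 385 lower became 88 (totals), 591 (series factor), 222 (acinar covariate) and 239 to 620 (single libraries left out). In males, 0 called higher became 1 with RLE, 48 with DESeq2, 1 with 45 libraries and 0 to 5 with single libraries left out, 5 without male 44% fat replicate 3, and 0 lower became 1 with DESeq2. In males 208 lower became 24 (totals), 357 (series factor) and 128 to 307 (single libraries left out). For the difference between the sexes, DESeq2 called 6 more positive in males and 1 in females. The 659 genes more positive in males at an unadjusted p under 0.05 became 336 (totals), 438 (acinar covariate) and 384 (without the 3). The 166 in the other direction became 100 (totals), 256 (DESeq2), 261 (series factor), 105 (acinar covariate) and 125 to 441 (single libraries left out).

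Against NZO/HlLtJ, 1741 more positive became 808 (totals) and 855 (without 5 mixed libraries), and 1802 more negative became 508 and 787. Against CAST/EiJ, 0 more positive became 1 without a filter, and 3 more negative became 0 without the mixed libraries. The causes were not tested. Over 85 genes and 30 settings (2550 pairs), 126 were opposite in sign, 27 were called with the same sign and 151 moved by at least 1 SE. Genes with a mean below 1 CPM, 9 of the 30 mitosis genes among them, rest on fewer counts, and the effect of depth was not tested.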
